A study of Mus musculus with 12 samples.

Results

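Cd79a and Cd79b encode the signalling chains of the B cell receptor, and both were measured here in B220+ spleen cells with and without the transcription factor MAX. The members were taken by gene symbol, and both of the 2 symbols were found among the 24421 genes counted. They were chosen by measured values of these data, namely the lower Cd79a level in the groups that lack Max. Their levels and their ratio are therefore a description and carry no test. RNA came from 12 mice aged 4 to 5 weeks, 3 in each of 4 groups. The WT group had intact Max, the Max KO group was a conditional Max knockout, the EuMyc group carried the Myc transgene with intact Max, and the EuMyc Max KO group carried the transgene with the conditional knockout. EuMyc is a transgene that places Myc under the enhancer of the immunoglobulin heavy chain, active in the B lineage, and the series title calls such cells premalignant. The labels do not name the Cre line or its promoter. One B lineage deleter in wide use, mb1-Cre, carries its Cre inside the Cd79a gene and disrupts the copy that holds it. The labels do not say whether these mice carry that allele, and its part in the levels was not tested.

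The B cell receptor is a membrane immunoglobulin that binds antigen but has almost no cytoplasmic tail. CD79A (Igα) and CD79B (Igβ) form a disulphide-linked heterodimer beside it, and the receptor needs both to reach the cell surface. Each chain has an immunoreceptor tyrosine-based activation motif, which SRC family kinases such as LYN phosphorylate and on which SYK docks. The same pair serves the pre-B cell receptor earlier in development, where a surrogate light chain takes the place of the light chain. EBF1, PAX5, ETS1 and RUNX1 are known to act on the Cd79a promoter.

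Cd79a (ENSMUSG00000003379.7) is a protein-coding gene on the plus strand of mm10 chromosome 7, from 24897381 to 24902197, with 1457 bases of annotated exon. Cd79b (ENSMUSG00000040592.11) is a protein-coding gene on the minus strand of chromosome 11, from 106311341 to 106314762, with 1431 bases of exon. The genes are unlinked and nearly equal in exon length, so read counts of the pair can be set side by side with little correction. The 134 bases just before the annotated start of Cd79a, at chr7:24897247-24897380 on the plus strand of GRCm38.p6 in the RefSeq promoter table, are shown because this gene carries the main difference described here. Capitals mark the E-box found in the stretch.
Cd79a upstream: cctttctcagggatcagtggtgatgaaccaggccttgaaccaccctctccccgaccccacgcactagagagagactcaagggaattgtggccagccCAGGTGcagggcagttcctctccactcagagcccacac
Both strands were searched for 4 motifs. CANNTG, the general E-box, was found once, as CAGGTG, starting 38 bases before the gene, and 45.4% of 32851 mouse promoters held it in a stretch of the same length. CACGTG, the canonical E-box of MYC and MAX and a special case of CANNTG, was not found (2.49% of promoters held it), nor were GGAAGT, an ETS motif (9.36%), and the palindromic EBF1 motif (0.402%). These are letter matches in this window and say nothing of binding. GENCODE and RefSeq place the Cd79a start differently, and only bases before the earlier GENCODE start were searched. Bases after that start and other forms of the EBF1 and ETS motifs were not searched. Whether the Cd79a promoter holds sites for these factors was therefore not tested. The table matched 1 of the 2 members.

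The libraries held 14973332 to 21671601 reads within genes. Levels are in CPM, a gene's reads brought to a common library size after TMM scaling, with the SD over n = 3 mice. A log2 fold change carries its standard error (SE), and a gene was called at an adjusted p under 0.05 in edgeR's quasi-likelihood test over 12878 genes. The Max gene had 119 ± 16.8 CPM in the WT mice and 101 ± 1.28 in the Max KO mice, and 128 ± 1.87 in the EuMyc mice against 105 ± 3.15 with the knockout. Counts are summed over the whole gene, so this level does not measure the deletion of part of it. The 8 B cell markers, Cd79b among them, summed to 9857 to 10424 CPM (WT), 8884 to 9932 (Max KO), 4108 to 4905 (EuMyc) and 7330 to 8831 (EuMyc Max KO). Markers of other cells also had reads in every group. The 11 monocyte and macrophage markers gave 1515 to 1842 (WT), 2414 to 3487 (Max KO), 698 to 845 (EuMyc) and 2594 to 4365 CPM (EuMyc Max KO). The 9 pro-B and pre-B cell markers gave 66.8 to 92.5 (WT), 52.2 to 73.2 (Max KO), 554 to 632 (EuMyc) and 71.5 to 117 CPM (EuMyc Max KO), with Vpreb2 at 0 in WT and Max KO. Within the EuMyc Max KO group, replicate 3 differed from replicates 1 and 2. Its chi-square per degree of freedom was 65.6 against replicate 1 and 30.5 against replicate 2, where other pairs within a group reached at most 15.0. Its erythroid markers summed to 1112 CPM where the group reached 5756. These markers gave 159 to 407 CPM in WT, 228 to 526 in Max KO and 705 to 833 in EuMyc. Reads without a unique alignment made up 27.9% and 27.0% in replicates 1 and 2 and 22.6% in replicate 3. In the other groups they made up 20.3% to 23.4%. On both measures replicate 3 lay closer to the other groups than replicates 1 and 2 did. In bulk RNA, fewer B cells and less RNA per B cell cannot be told apart.

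Cd79a was lowest in the groups without Max and highest in WT. Its level was 2122, 1937 and 1691 CPM in the 3 WT libraries. In Max KO it was 779, 862 and 835 CPM. The WT and Max KO libraries did not overlap, and the lowest WT library stood far above the highest Max KO library. In EuMyc the level was 898, 864 and 964 CPM, which put a group with intact Max close to the Max KO group. The EuMyc Max KO libraries had 615, 654 and 758 CPM and lay below all others. The order of the means was WT (1917 ± 216), EuMyc (909 ± 50.4), Max KO (825 ± 42.7) and EuMyc Max KO (676 ± 74.0). EuMyc and Max KO, the neighbours in the middle, were separated only by the gap between 862 and 864 CPM.

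Cd79b had another order. Its level was 2149, 1921 and 1841 CPM in WT, and in Max KO it was 1464, 1490.5 and 1653 CPM. These groups did not overlap either, although they stood much closer than for Cd79a. In EuMyc the level was 1010.3, 946 and 1190.2 CPM, the lowest of the 4 groups. In EuMyc Max KO it was 1220.02, 1281 and 1503 CPM, above every EuMyc library and overlapping the Max KO group. The means ran WT (1970.2 ± 160), Max KO (1536 ± 102), EuMyc Max KO (1335 ± 149) and EuMyc (1049 ± 127). Both genes are abundant in WT, where Cd79a ranked 17th to 23rd and Cd79b 18th or 19th by reads among all genes in a library. In Max KO, Cd79a ranked 100th to 115th while Cd79b stayed 24th to 31st.

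**Figure D1:**
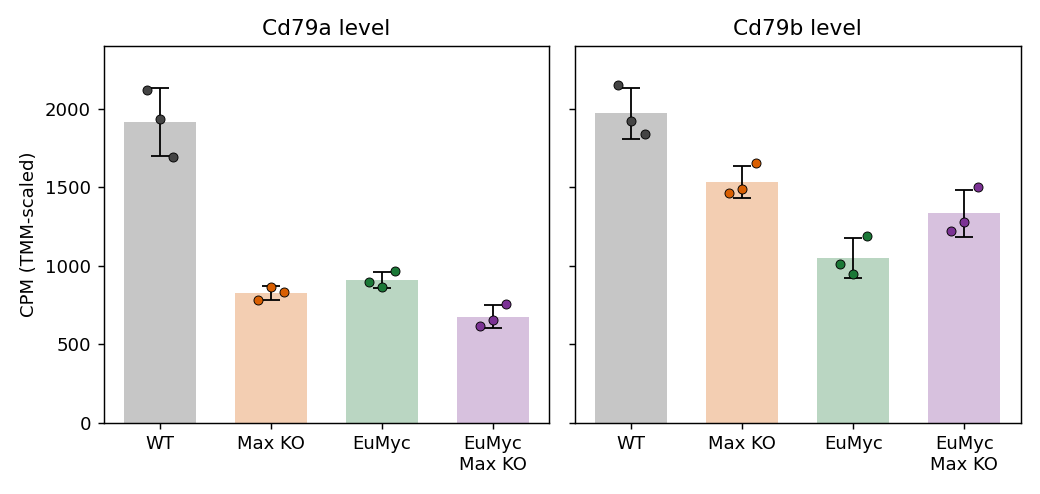
Levels of Cd79a (left) and Cd79b (right) in CPM for each library (points), with the group mean (bar from 0) and SD (error bar, n = 3 mice). The Cd79a mean is 1917 CPM in WT and 825 in Max KO, while the Cd79b mean is 1970.2 and 1536.

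The ratio of Cd79a to Cd79b reads is taken within a library and needs no scaling between libraries. In WT it was 0.987, 1.01 and 0.919, so the pair gave about equal numbers of reads. In Max KO it was 0.532, 0.579 and 0.505. In EuMyc it was 0.889, 0.914 and 0.810. In EuMyc Max KO it was 0.504, 0.510 and 0.504, the tightest of the groups, with an SD of 0.00343 around a mean of 0.506. All 6 libraries with intact Max lay between 0.810 and 1.01, and all 6 labelled Max KO lay between 0.504 and 0.579. The group means were 0.971 ± 0.0470 in WT, 0.538 ± 0.0372 in Max KO and 0.871 ± 0.0546 in EuMyc. Per kilobase of annotated exon the means were 0.954, 0.529, 0.856 and 0.497 in WT, Max KO, EuMyc and EuMyc Max KO.

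The ratio was lower without Max on both backgrounds. The log2 ratio differed by -0.85 (SE 0.0702) between Max KO and WT, which is 0.554 of the WT ratio. Between EuMyc Max KO and EuMyc it differed by -0.78 (SE 0.0533), which is 0.582 of the EuMyc ratio. Within EuMyc Max KO the ratio ran from 0.504 to 0.510, Cd79a from 615 to 758 CPM and the erythroid markers from 1112 to 5756 CPM. Whether the ratio depends on either was not tested. With the transgene, EuMyc against WT differed by -0.16 on the log2 scale (SE 0.0669), and the groups did not overlap. The difference is given as a description, because a two-sided exact permutation test of 3 mice against 3 cannot go below p = 0.1. EuMyc Max KO and Max KO overlapped, with a difference of -0.09 (SE 0.0574), given as a description.

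**Figure D2:**
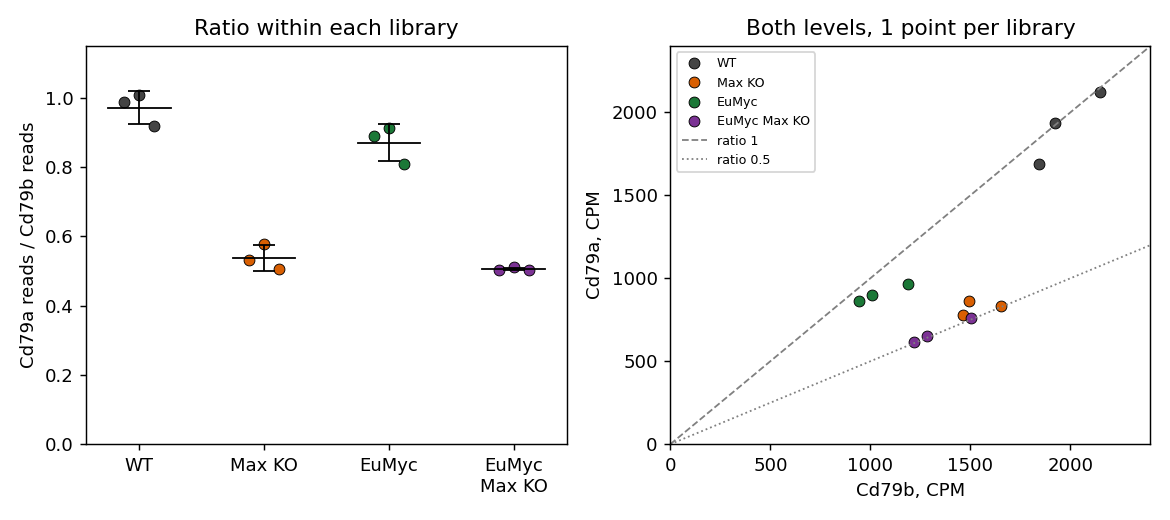
Left, reads of Cd79a divided by reads of Cd79b in each library (points), with mean (long line) and SD (error bar, n = 3 mice). Right, Cd79a against Cd79b in CPM, 1 point per library, with lines at ratios of 1 and 0.5. The 6 libraries labelled Max KO lie near the lower line at 0.504 to 0.579, with Cd79b at 1220 to 1653 CPM.

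Loss of Max in normal cells went with a Cd79a level at 43.1% of WT. The log2 fold change was -1.22 (SE 0.0971), and 248 of the 12878 genes tested (1.93%) had a lower one. Among the 260 tested genes with a mean of at least 500 CPM, Cd79a and 1 other, the proliferation gene Mki67, were at or below that value. Cd79b was at 78.0% of WT, with a log2 fold change of -0.36 (SE 0.104). The median of all genes was -0.00, and 15.0% of genes were called in this contrast, 7.74% as lower. The monocyte and macrophage markers were higher in Max KO, and 3 of 11 were called. Their part in the levels was not tested. Set against each of 17 other B lineage genes in the same libraries, Cd79a was lower in Max KO for all 17, by a log2 difference of -1.66 to -0.83 with a median of -1.20. Cd79b was lower for 16 of the 17, with a median of -0.35.

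Of the same 17 genes, in Max KO against WT 1 was called higher and 2 lower, where 7.27% and 7.74% of all genes were. The median log2 fold change of the 17 was -0.01. Cd72, an inhibitory lectin-like receptor, rose from 383 ± 8.62 to 522 ± 36.1 CPM (log2 fold change 0.45). Fcrla, an intracellular Fc receptor-like protein of B cells, fell from 555 ± 44.7 to 426 ± 15.1 CPM (-0.38). Of the genes known for binding the Cd79a promoter, Ebf1 was at 266 ± 19.8 CPM in WT and 264 ± 18.8 in Max KO, and Pax5 was at 240.2 ± 9.22 and 231 ± 6.57. Neither was called. Among 16 transcription factors on a list drawn up for the promoters of the pair, 1 was called, Spib, as lower, where 7.74% of all genes were.

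**Figure D3:**
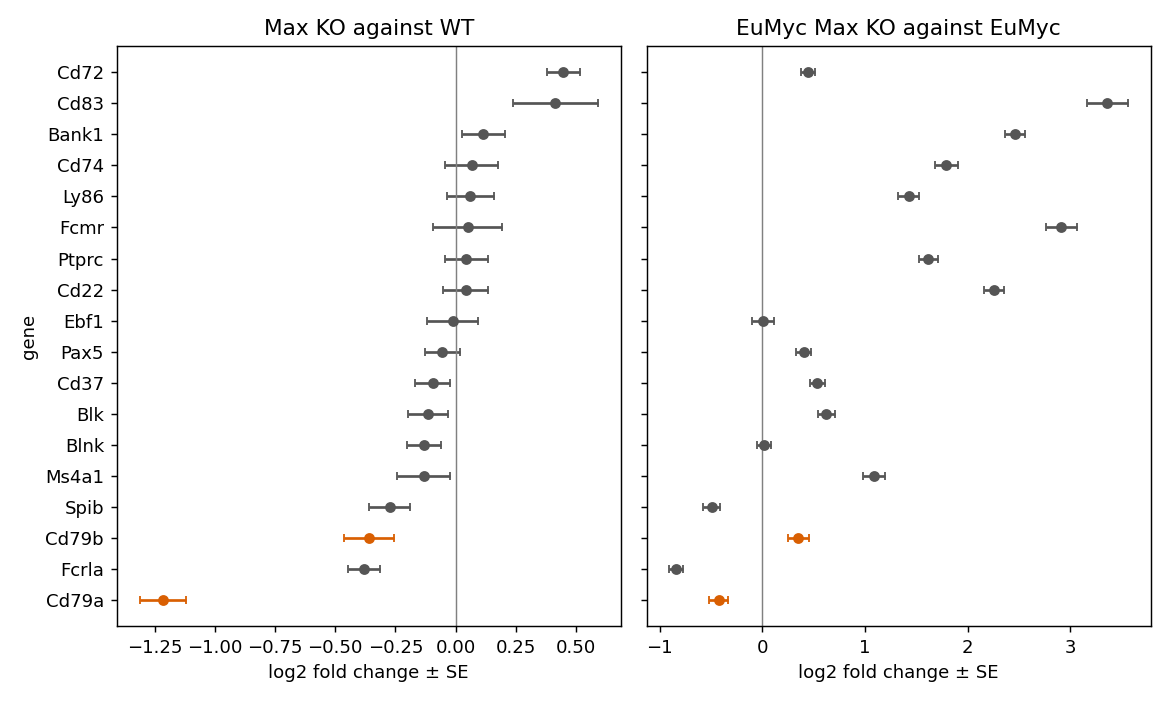
Log2 fold change with its SE for Cd79a, Cd79b (orange) and 16 of the 17 other B lineage genes (grey), in Max KO against WT (left) and EuMyc Max KO against EuMyc (right). On the left Cd79a lies at -1.22 while the 17 genes have a median of -0.01, and on the right the 17 have a median of 0.62 with Cd79a at -0.43.

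Loss of Max in EuMyc cells went with changes of opposite sign in the pair. Cd79a was at 74.4% of EuMyc (log2 fold change -0.43, SE 0.0960) and Cd79b at 127% (0.35, SE 0.104). Every EuMyc Max KO library was below every EuMyc library for Cd79a and above every one for Cd79b. In this contrast 73.7% of all genes were called, so a change of this size is common here, and 29.7% of genes had a lower log2 fold change than Cd79a. Most B lineage genes were higher without Max on this background: 13 of the 17 rose and 2 fell, with a median of 0.62. Of all genes, 37.6% rose and 36.1% fell. Relative to each of the 17, Cd79a was lower for 15, with a median log2 difference of -1.05, and Cd79b was lower for 13, with a median of -0.27. All 11 monocyte and macrophage markers rose as well, and their part in the levels was not tested. Without EuMyc Max KO replicate 3 the log2 fold changes were -0.52 for Cd79a and 0.25 for Cd79b. Each group serves in 2 of the comparisons, as WT does against Max KO and EuMyc, so their values stand side by side and are not independent.

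Both chains were lower with the transgene in cells with Max. The choice of members rested on a level lower than in these groups, so the values are a description. Cd79a was at 47.4% of WT (log2 fold change -1.08, SE 0.0968). Cd79b was at 53.2% (-0.91, SE 0.104). All 3 EuMyc libraries were below all 3 WT libraries for each gene. The background in this contrast is high, with 71.6% of genes called and 34.9% called lower, and 16.2% of genes had a lower log2 fold change than Cd79a. The pro-B and pre-B cell marker sums were higher in the same EuMyc libraries. Of the 8 tested markers 6 were called higher and 1 lower, where 36.7% of all genes were called higher. The part of these markers in the levels was not tested. Between the groups that lack Max, whose levels chose the members, the values are a description. Cd79a was at 81.9% of Max KO (log2 difference -0.29, SE 0.0959) and Cd79b at 86.9% (-0.20, SE 0.104), in a contrast where 14.4% of all genes were called. Intervals at 95% for the log2 difference used a normal approximation, which is too narrow for 8 residual degrees of freedom. They ran from -0.48 to -0.10 for Cd79a and from -0.41 to 0.00 for Cd79b, as a description. Without EuMyc Max KO replicate 3 the Cd79a difference was -0.38.

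The receptor pathway beyond the pair was described from lists of 75 other genes, of which 69 were in the tables and 68 were tested. The immunoglobulin constant region genes on the list are not analysed here. In EuMyc against WT 60 of the 68 fell and 3 rose, against 34.9% and 36.7% of all genes, with a median log2 fold change of -0.87 against 0.01 for all genes. The pro-B and pre-B cell markers given above moved with that contrast, at 554 to 632 CPM in EuMyc and 66.8 to 92.5 in WT, and their part in these counts was not tested. In Max KO against WT 13 rose and 5 fell (7.27% and 7.74% of all genes did), and the median was 0.04. None of the 68 had a lower log2 fold change than Cd79a in that contrast. In EuMyc Max KO against EuMyc 54 rose and 4 fell, against 37.6% and 36.1% of all genes, with a median of 0.71. The difference between the 2 Max comparisons, tested as an interaction, was called in 53 of the 68, 51 of them with the higher value in EuMyc cells, where 55.7% of all genes were called, 27.8% higher and 27.9% lower. In EuMyc Max KO against Max KO 9 fell and 2 rose, against 3.69% and 10.7% of all genes. That count depended on single mice, with 1 gene called without EuMyc Max KO replicate 1 and 23 without EuMyc Max KO replicate 3. The 18 calls of Max KO against WT became 5 without WT replicate 1.

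Among the listed kinases that act close to the receptor, in EuMyc 7 of 8 fell, where 34.9% of all genes did. Lyn, which phosphorylates the activation motifs, went from 612 ± 32.1 to 331 ± 17.3 CPM (log2 fold change -0.88), and Blk, a related B cell kinase, fell by 0.95. Syk, which docks on the phosphorylated pair, fell by only 0.21, from 1478 ± 50.5 to 1276 ± 15.3 CPM. Without Max, EuMyc cells had more Lyn (530.2 ± 14.5 CPM, log2 fold change 0.68) and more Blk (0.62). In Max KO against WT 2 of the 8 rose and 3 fell, where 7.27% and 7.74% of all genes did. Lck, which is also a T cell kinase, rose by 0.64, and the 8 T cell markers in the tables, Lck among them, summed to 102 to 125 CPM in WT and 158 to 180.0 in Max KO. Their part in the Lck value was not tested. Syk was at 1282 ± 43.1 CPM in Max KO (log2 fold change -0.20; edgeR, adjusted p = 0.0341), a call lost without any of WT replicates 1, 2 and 3 or Max KO replicates 1 and 2, with an adjusted p up to 0.117.

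Adaptors and enzymes downstream of SYK gave 31 lower of 34 in EuMyc, and 29 of 34 were higher in EuMyc Max KO than in EuMyc, where 34.9% of all genes fell and 37.6% were higher in the same contrasts. Bank1, a B cell scaffold protein, went from 689 ± 35.96 CPM in WT to 116 ± 15.7 in EuMyc (log2 fold change -2.58) and was at 636 ± 39.6 in EuMyc Max KO. All 5 coreceptor genes fell in EuMyc and all 5 were higher in EuMyc Max KO than in EuMyc. Cr2, a complement receptor, went from 1306 ± 60.2 CPM in WT to 53.2 ± 14.4 in EuMyc and was at 1367 ± 143 in EuMyc Max KO. Ptprc, which encodes the CD45 phosphatase and its B220 form, fell by 1.85 with the transgene and was 1.61 higher in EuMyc Max KO than in EuMyc.

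Inhibitory receptors and phosphatases gave 17 lower of 18 in EuMyc, and 15 of 18 were higher and 2 lower in EuMyc Max KO than in EuMyc, beside the same shares of all genes (34.9% lower, then 37.6% higher and 36.1% lower). Cd22, a sialic acid binding inhibitory receptor, went from 1436 ± 1.05 CPM in WT to 267 ± 31.7 in EuMyc (log2 fold change -2.43) and was at 1275 ± 125 in EuMyc Max KO. Ptpn6, the SHP-1 phosphatase that such receptors recruit, fell by 1.61 with the transgene. Fcrla went the other way on this background, from 615 ± 17.6 CPM in EuMyc to 344 ± 10.1 in EuMyc Max KO (-0.84), and it also fell between Max KO and EuMyc Max KO (-0.31). In Max KO against WT 5 of the 18 rose and 2 fell (7.27% and 7.74% of all genes). Pirb, an inhibitory receptor of B cells and myeloid cells, rose by 0.88, beside the higher myeloid marker sums given above, whose part in it was not tested.

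**Figure D4:**
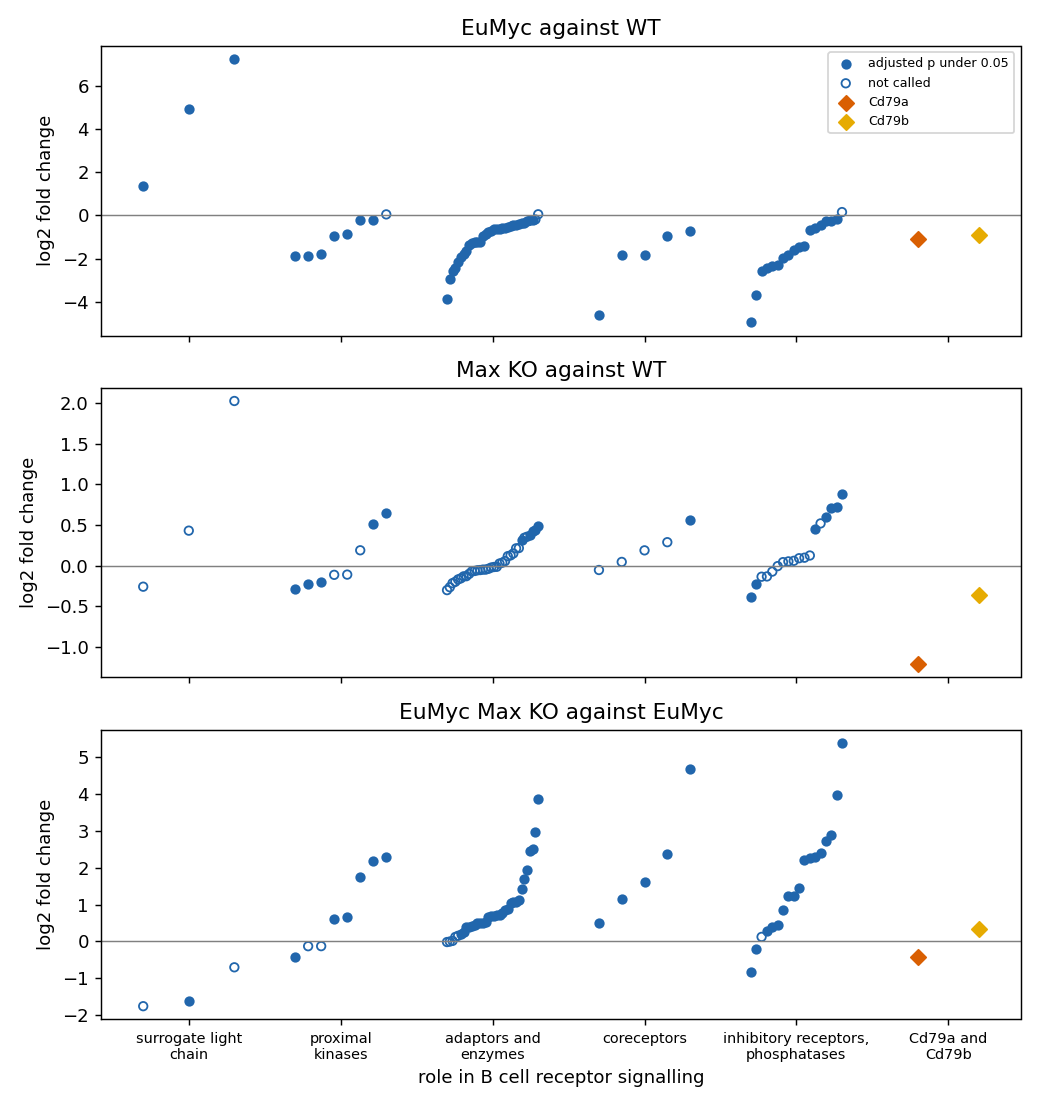
Log2 fold change of 68 B cell receptor pathway genes by role (circles, filled where called at an adjusted p under 0.05, open otherwise) and of Cd79a and Cd79b (diamonds, description only) in 3 contrasts, each on its own scale. Cd79a lies below all pathway genes in Max KO against WT, at -1.22.

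In pre-B cells the surrogate light chain, made of VPREB and IGLL1 proteins, pairs with the mu heavy chain, and the signalling chains stand beside that receptor. All 3 tested genes of this list rose with the transgene, where 36.7% of all genes did. Vpreb3, a related gene that is not a chain of the surface receptor, went from 67.4 ± 7.67 CPM in WT to 172 ± 7.63 in EuMyc (log2 fold change 1.35) and fell to 56.3 ± 3.71 in EuMyc Max KO (-1.61). Igll1 and Vpreb1 were near 0 in WT, at 0.115 and 0.116 CPM, and were at 18.3 ± 10.6 and 3.75 ± 1.92 in EuMyc. Both were called. In EuMyc Max KO they were at 5.43 ± 3.94 and 2.31 ± 1.34 CPM, not called against EuMyc (edgeR, adjusted p = 0.0567 and 0.255) and called higher than in Max KO (edgeR, adjusted p = 0.0220 and 0.0401), where they were at 0.165 and 0.495. Those last calls rest on few mice: 0 pathway genes were called higher than in Max KO without Max KO replicate 1 or 3 or EuMyc Max KO replicate 1 or 2, and 1 without Max KO replicate 2. Cd79a and Cd79b, which serve both receptor forms, moved opposite to these 3 genes in EuMyc. Of the 16 transcription factors, 10 fell and 4 rose in EuMyc, where 34.9% and 36.7% of all genes did. Pax5 went to 143 ± 7.67 CPM (-0.75), and Pou2f2, an octamer factor, fell by 1.28. Tcf3, which encodes the E2A proteins, rose from 352 ± 25.5 to 959 ± 31.5 CPM (1.45) and was at 330.5 ± 21.3 in EuMyc Max KO (-1.54).

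Genes beside Cd79a on the chromosome were examined next. Of 7 protein-coding neighbours whose starts lie within 100 kb, 3 were tested, and their log2 fold changes in Max KO against WT ran from -0.29 to 0.13. Arhgef1, a guanine nucleotide exchange factor that starts 5.53 kb downstream of the Cd79a start, was at 1007 CPM in WT and 1096 in Max KO (0.12, SE 0.0695; edgeR, adjusted p = 0.257). Rabac1 was at 0.13 (SE 0.0779; edgeR, adjusted p = 0.298). Rps19, a ribosomal protein gene that starts 13.0 kb upstream, was at 731 and 600 CPM (-0.29; edgeR, adjusted p = 0.0485), and that call was lost without WT replicate 1 or 3 or Max KO replicate 1 or 2. In EuMyc Max KO against EuMyc, Arhgef1 (1.02) and Rabac1 (0.86) rose and Rps19 fell (-0.62). Ribosomal protein genes have processed copies that can share reads, so the Rps19 level is uncertain. Of 10 neighbours of Cd79b 9 were tested, and 1 was called higher and 1 lower in Max KO against WT, close to the share of all genes called there (7.27% higher and 7.74% lower).

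The genes with profiles most like each member over the 12 libraries differed between the pair. Likeness was Pearson's r of log2 CPM, as a description, and the 12 points share 4 groups. For Cd79a the closest were Egln2, an oxygen-sensing hydroxylase (r = 0.967), Eif2ak3, the PERK kinase (0.955), Tnks1bp1 (0.955), Atp2a3, a calcium pump (0.954), and Syk (0.952). Egln2 had 93.0 CPM in WT mice, 70.2 in Max KO mice, 75.2 in EuMyc mice and 67.3 with both. For Cd79b they were Grk6, a receptor kinase (0.988), Ccm2 (0.987), Arpc5l (0.984), Rasa3, a RAS regulator (0.983), and Cd2, an adhesion receptor (0.981). Among the 9157 genes compared, Cd79b was 284th in likeness to Cd79a, and Cd79a was 2008th in likeness to Cd79b (r = 0.696). The levels without Max that chose the members are part of these profiles.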

How the data were processed

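RNA from B220+ spleen cells of 12 mice was sequenced, 1 library per mouse, per the labels. The submitters' processing notes name bcl2fastq 1.8.4, TopHat2 2.1.0, HTSeq 0.6.1 and build mm10. The authors deposited raw counts, whole numbers of reads for each gene symbol, with no normalization. The annotation and strand setting of the counting remain unknown, not given in the sources used here. The 5 summary rows were left out; reads outside genes made up 12.5% to 20.3% of a table.

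Counts were fitted in R 4.3.3 with edgeR 4.0.16: filterByExpr (12878 of 24421 genes), TMM scaling, and 1 quasi-likelihood model over the 4 groups with 8 residual degrees of freedom and Benjamini-Hochberg adjustment. DESeq2 1.42.0, RLE or total scaling, no filter, fits on 6 libraries, a replicate block and leaving out each mouse were alternatives. The fit was tested on simulated data. Members and lists were chosen with earlier results of these data known. Within a list, up to 6 called genes with the smallest p could be named (2 of highest CPM where none was called), with 5 genes of most similar profile (mean of at least 10 CPM) and neighbours within 100 kb. Ebf1, Pax5, Ets1, Runx1 and Syk were also given for their roles. Exon lengths are from GENCODE vM21. The values of 1 listed gene are not reported here.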

Additional observations from a re-analysis of the deposited data

Results flagged for a closer look

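Cd79b had opposite differences with Max loss on the 2 backgrounds. Every Max KO library lay below every WT library, and every EuMyc Max KO library lay above every EuMyc library. The difference between the log2 fold changes was 0.71 (SE 0.147), and it was not tested because the member was chosen with these levels known. For Cd79a the same difference was 0.79 (SE 0.136), also without a test.

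Among genes named for both Max comparisons, 6 had differences with Max loss that were unequal between EuMyc and normal cells in edgeR's quasi-likelihood test of the interaction, where 55.7% of all genes were called. Lck had an interaction of 1.55 (adjusted p = 7.19e-07), Pirb 1.40 (adjusted p = 9.62e-06) and Fcrla -0.46 (adjusted p = 0.00109) in edgeR. The neighbours of Cd79a gave 0.90 for Arhgef1 (adjusted p = 7.92e-06), 0.74 for Rabac1 (adjusted p = 0.000109) and -0.34 for Rps19 (adjusted p = 0.0365) in edgeR. Cd72 was also named for both. It rose by 0.45 with Max loss on both backgrounds, with an interaction of -0.00 (SE 0.0967, edgeR adjusted p = 0.996).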

How the results depend on the processing

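Of the values recomputed under the alternatives, 838 were scored the same and 0 reversed. Another 33 lost a call or shrank as a count, 5 gained a call or grew, and 2 levels moved beyond the replicate SD. For a tested gene, the same meant its direction and side of the threshold. For a count it meant within a set fold of the main count, so such counts could still change. For a level, ratio or untested fold change it meant within the replicate SD. A test of Cd79a in EuMyc Max KO against Max KO had been planned, but both groups served to choose the gene and no call is made from it. The log2 difference was -0.31 with library totals and -0.28 in DESeq2. It ran from -0.38 to -0.22 when 1 mouse was left out. The 2 levels were Cd79a in EuMyc on library totals (853 CPM) and the EuMyc Max KO ratio per kilobase (0.497), which follow from the changed divisor. Genes called in EuMyc Max KO against Max KO numbered 851 when only those 6 libraries were fitted, and 1057 (without EuMyc Max KO replicate 2) to 2846 (without EuMyc Max KO replicate 3) with 1 mouse left out. In Max KO against WT they ran from 808 (without WT replicate 1) to 1565 (without Max KO replicate 3), and were 889, 1060 and 1206 without Max KO replicate 1, Max KO replicate 2 and WT replicate 3. Pathway calls ran from 5 to 13 in Max KO against WT and from 1 to 23 in EuMyc Max KO against Max KO, an alternative chosen after seeing the data. Fewer mice enter each of these fits; beyond that the cause was not tested. Library totals gave 1130 higher and 719 lower in Max KO against WT, where the TMM fit gave 936 and 997, and moved the median of all genes to 0.15 in EuMyc Max KO against EuMyc.

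Replicate numbers were not used as pairs, because the labels tie them to nothing shared and not every same-numbered pair correlated above 0.1. The correlations were 0.0951 to 0.344 in Max KO against WT, with 2 of 3 pairs above 0.1, and -0.117 to 0.143 in EuMyc Max KO against Max KO. With the replicate number as a block 1738 genes were called in Max KO against WT, and of 68 values 67 were scored the same. The other was Syk in Max KO against WT (-0.21, edgeR adjusted p = 0.0540). In Max KO against WT 6 of 6 libraries were closest to their own number, a hint from the data that the numbers may share something there, and 3, 0 and 2 of 6 were in EuMyc Max KO against EuMyc, EuMyc against WT and EuMyc Max KO against Max KO.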
